A study of Homo sapiens with 10 samples.

Results

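Small heat shock proteins are chaperones that work without ATP: they bind proteins that begin to unfold and hold them until other chaperones refold them or hand them on for degradation. Most share the alpha-crystallin domain, which pairs into dimers and larger oligomers, and several are made on demand under the control of heat shock factor 1 (HSF1), the main transcription factor of the heat shock response. The genes described here were the 8 whose symbols are HSPB1, HSPB2, HSPB3, HSPB6, HSPB7, HSPB8, HSPB11 and CRYAB. They were picked by symbol, a rule that uses no measured value, although earlier results of these data were known when the family was chosen. The deposited table listed 28380 genes and held 7 of the 8. HSPB3 was not listed, which means that no read was counted for it.

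The cells were RPE-1, a single established line of human retinal pigment epithelial cells immortalized with telomerase. They received either sulforaphane (SFN), an isothiocyanate from cruciferous vegetables, or the vehicle dimethyl sulfoxide (DMSO) for 4 h, and RNA was sequenced from 5 replicates of each treatment. The study's methods describe cells treated replicate by replicate, and state for its experiments in general that replicates were independent. Neither the RNA-seq methods nor the labels say whether these were independent cultures. The p-values thus measure only the spread between these samples, which may be technical. The total count per library ranged from 15689294 to 20666692 in DMSO and from 12375860 to 17308706 in SFN. Levels are given in CPM, counts relative to library sizes that were corrected for RNA composition by TMM. Changes are log2 fold changes of SFN against DMSO, fitted with edgeR and its quasi-likelihood test, and p-values were adjusted (Benjamini-Hochberg) over the 13378 genes that passed the filter on low counts. A gene was said to have risen or fallen where its adjusted p was under 0.05.

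DMSO replicate 1 stood apart from the rest. Across genes, its log2 CPM correlated with those of the rest of its group less well (mean Spearman rho of 0.935) than the other 4 did (0.979 to 0.982), and it held relatively more reads of short transcripts. Results that rest on it are given with and without it. As a check of the cell type, keratin genes KRT8 and KRT18 were abundant, with lowest values of 316 and 169 CPM. Of 12 retinal pigment epithelium markers, TYR was not listed and RPE65, RLBP1, LRAT, TYRP1 and SERPINF1, which mark the differentiated tissue, stayed under 1 CPM in every library. Of the 6 tested, none rose, and the transcription factor genes MITF (-1.12) and OTX2 (-0.64) fell. Leaving out DMSO replicate 1, both still fell, and BEST1 (1.68, adjusted p = 0.0096 by edgeR) and KRT8 (0.37, adjusted p = 0.016 by edgeR) rose. The shares over all genes tested were 9.07% that rose and 13.9% that fell with all libraries. Leaving out that library, they were 22.5% and 23.5%. The summed level of the list was 582 to 876 CPM in DMSO and 566 to 993 CPM in SFN. Their part in any result was not tested.

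Because HSF1 binds repeats of the letters GAA in alternating orientation, the upstream sequences of HSPB8, HSPB1 and HSPB7 are shown here. They stand for the member that rose, the most abundant member, and a member whose groups overlapped. Each is the 250 bases before the transcription start given by RefSeq on GRCh38.p14, written 5′ to 3′ on the gene's strand. Capitals mark a pair of facing units, GAANNTTC or TTCNNGAA, each of which reads the same on both strands. HSPB8 lies on the plus strand at chr12:119178681-119178930, HSPB1 on the plus strand at chr7:76302423-76302672 and HSPB7 on the minus strand at chr1:16018044-16018293.
HSPB8: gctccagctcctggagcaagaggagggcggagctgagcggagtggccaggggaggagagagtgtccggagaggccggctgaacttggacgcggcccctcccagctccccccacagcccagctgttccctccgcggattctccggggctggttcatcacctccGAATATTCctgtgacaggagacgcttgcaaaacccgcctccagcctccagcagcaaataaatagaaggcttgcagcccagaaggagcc
HSPB1: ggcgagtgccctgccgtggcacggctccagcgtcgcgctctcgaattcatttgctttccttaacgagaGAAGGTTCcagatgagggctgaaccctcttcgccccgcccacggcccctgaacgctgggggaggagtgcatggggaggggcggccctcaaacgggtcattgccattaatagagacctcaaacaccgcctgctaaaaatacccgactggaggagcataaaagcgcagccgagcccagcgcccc
HSPB7: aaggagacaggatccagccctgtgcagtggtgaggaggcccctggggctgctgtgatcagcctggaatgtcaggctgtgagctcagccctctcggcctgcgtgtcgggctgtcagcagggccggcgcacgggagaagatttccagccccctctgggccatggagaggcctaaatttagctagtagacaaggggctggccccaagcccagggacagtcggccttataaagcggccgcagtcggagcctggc
The RefSeq promoter table, which spans 250 bases before to 50 after each start, matched 6 of the 8 members. CRYAB and HSPB2 were not matched. A pair of facing units was found in 4 of the 6. In HSPB8 one began 88 bases before the start (position -88), and another lay 4 bases after it. The pair began at -182 in HSPB1, at -242 in HSPB3, and at -210 and -196 in HSPB6. None was found in HSPB7 or HSPB11. Such a pair occurs in 13.5% of the 35116 promoters in the table, 6.77% for GAANNTTC and 7.74% for TTCNNGAA. No member held 3 alternating units in a row, which 0.49% of promoters do. The core letters of the antioxidant response element bound by NRF2, TGACNNNGC, were found on either strand in 3 members, HSPB1, HSPB3 and HSPB6, and in 13.3% of promoters. The letters TGATGNAA, a core of elements bound by the stress factor ATF4, were found in no member and in 3.62% of promoters.

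The first question was which members responded to 4 h of SFN. HSPB8 was the member that rose, 2.55-fold, while the most abundant member, HSPB1, passed the test only when DMSO replicate 1 was left out or given a lower weight. CRYAB and HSPB7 kept overlapping levels, and HSPB2 and HSPB3 were at or near 0. HSPB6 was too rare to pass the filter. Its counts were lower in SFN but did not pass edgeR's test run without the filter (adjusted p = 0.19). Of the 5 members that passed the filter, 1 rose and none fell by edgeR's test, also at unadjusted p under 0.05, and DESeq2 and limma-voom on quantile-normalized values gave the same counts. Over all 13378 genes, 9.07% rose and 13.9% fell. The median log2 fold change was 0.00 over the 5 members and -0.03 over all genes tested.

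**Figure D1:**
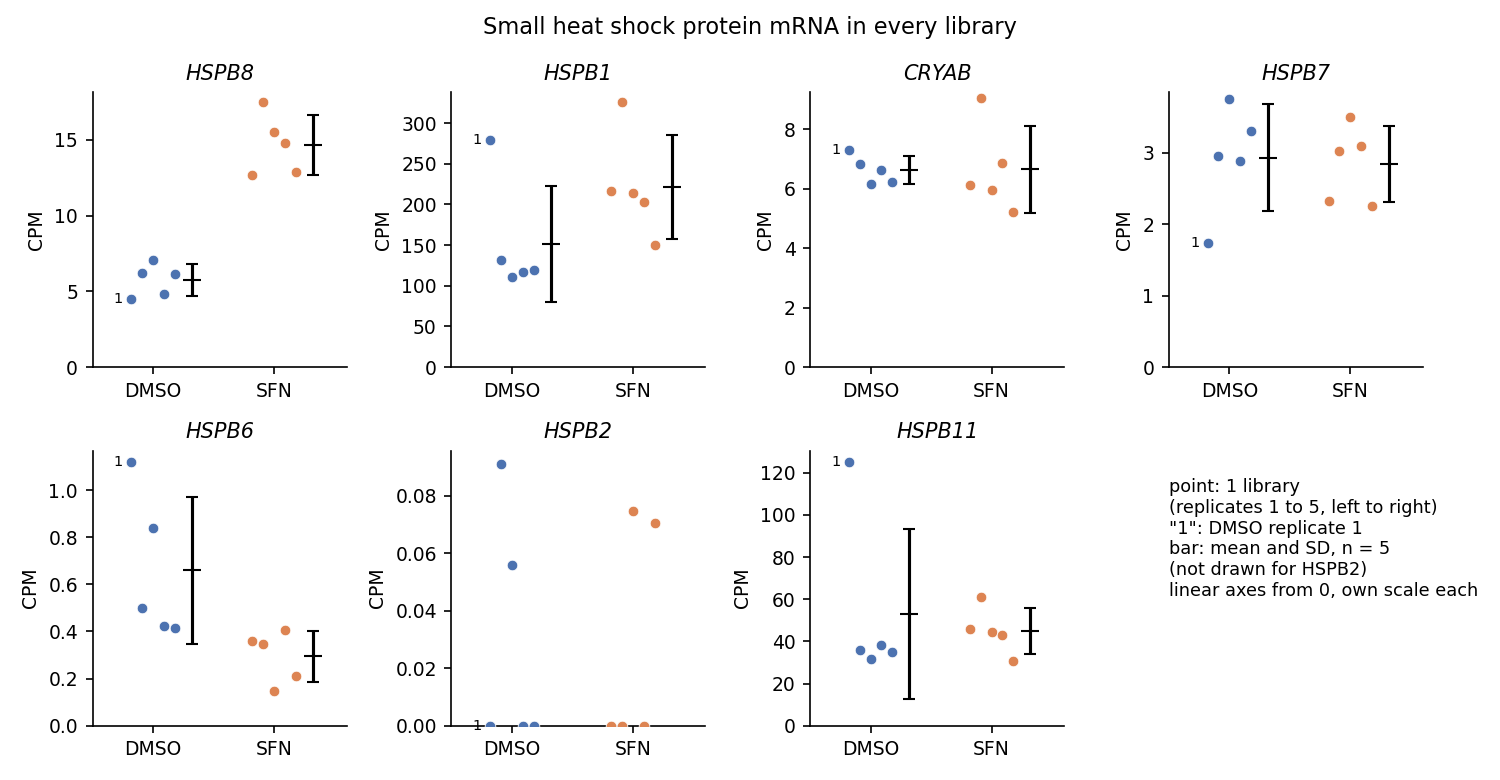
CPM of each listed member in the 5 DMSO and 5 SFN libraries, with mean and SD for each group except HSPB2; each panel has its own linear axis from 0, and DMSO replicate 1 is marked. HSPB8 was 4.48 to 7.04 CPM in DMSO and 12.7 to 17.5 CPM in SFN, whereas DMSO replicate 1 was far above the other DMSO libraries for HSPB1 and HSPB11.

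HSPB8 (ENSG00000152137, HSP22, chr12:119171555-119224855, plus strand, GENCODE 44 on GRCh38) encodes the small heat shock protein that pairs with the cochaperone BAG3 and delivers clients to autophagy. In DMSO replicates 1 to 5 it measured 4.48, 6.20, 7.04, 4.82 and 6.16 CPM. In SFN replicates 1 to 5 it measured 12.7, 17.5, 15.5, 14.8 and 12.9 CPM. Every SFN library was above every DMSO library, and the lowest SFN value was well clear of the highest DMSO value. Groups that did not overlap with SFN higher were seen for 8.78% of all genes tested. The means were 5.74 ± 1.06 CPM in DMSO and 14.7 ± 1.98 CPM in SFN (SD, n = 5). The log2 fold change was 1.35 ± 0.16 (SE, 95% interval 1.01 to 1.69, adjusted p = 8.9e-05 by edgeR), and 2.94% of genes tested rose by more than 2-fold. The counts behind it were 72 to 136 per library in DMSO and 183 to 219 in SFN. Without DMSO replicate 1 the log2 fold change was 1.26 ± 0.14 (SE, adjusted p = 8.9e-06 by edgeR).

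An annotated feature next to HSPB8 moved the same way. AC084880.1 (ENSG00000213144), a processed pseudogene with 1 exon at chr12:119194850-119195394, lies on the same strand and begins 104 bases beyond the end of the 3-exon canonical HSPB8 transcript. No annotated HSPB8 exon covers it. It measured 1.87, 1.14, 1.29, 0.602 and 0.651 CPM in DMSO replicates 1 to 5, and 4.35, 2.93, 3.65, 3.58 and 3.18 CPM in SFN replicates 1 to 5. All SFN libraries were again above all DMSO libraries (log2 fold change 1.67 ± 0.29, SE, adjusted p = 0.0016 by edgeR). Whether its reads came from HSPB8 transcripts was not tested. The 2 other features that overlap the HSPB8 locus, both long noncoding RNAs on the opposite strand, were not listed.

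The genes whose pattern over the 10 libraries was most like that of HSPB8 were found by the root mean square difference of centred log2 CPM among 10038 genes with a mean of at least 5 CPM. GARS, the glycyl-tRNA synthetase gene, came first at 0.15, with means of 168 CPM in DMSO and 410 CPM in SFN. MARS, the methionyl-tRNA synthetase gene, followed at 0.175, with 86.1 and 196 CPM. BCL6, a transcriptional repressor gene, came next at 0.177, with 12.7 and 30.4 CPM. Their log2 fold changes were 1.29, 1.19 and 1.26. This likeness is a description, and the points share their libraries.

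HSPB1 (ENSG00000106211, HSP27, chr7:76302673-76304295, plus strand), the classical stress-inducible member that also binds actin filaments, was the most abundant. In DMSO replicates 1 to 5 it measured 279, 132, 111, 117 and 119 CPM. In SFN replicates 1 to 5 it measured 216, 326, 214, 203 and 150 CPM. Replicates 2 to 5 of DMSO lay close together and below every SFN library, while DMSO replicate 1 lay above 4 of the 5 SFN libraries. The means were 152 ± 71.7 CPM in DMSO and 222 ± 64.1 CPM in SFN (SD, n = 5), and the log2 fold change of 0.55 ± 0.28 (SE, 95% interval -0.06 to 1.15) did not pass the test (adjusted p = 0.19 by edgeR). Without DMSO replicate 1 the DMSO mean was 120 ± 9.03 CPM (SD, n = 4) and the log2 fold change 0.88 ± 0.16 (SE, 95% interval 0.53 to 1.23, adjusted p = 0.00069 by edgeR). In that comparison 22.5% of 13566 genes rose, and 16.6% had groups that did not overlap with SFN higher. The HSPB1 pseudogenes HSPB1P1 and HSPB1P2, to which reads of HSPB1 could have been assigned, had at most 6 and 5 counts in any library.

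**Figure D2:**
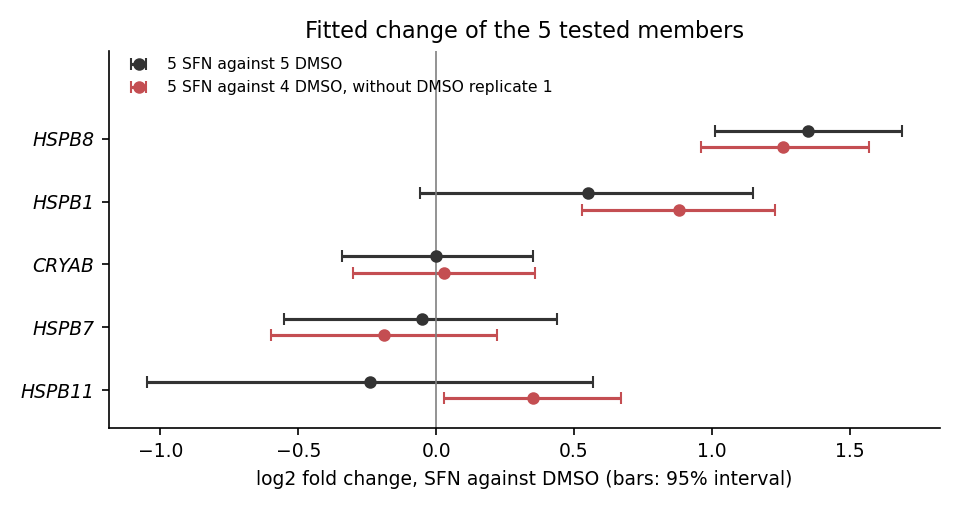
Log2 fold changes with 95% intervals for the 5 members that passed the low-count filter, with all 10 libraries (dark) and without DMSO replicate 1 (red). The interval of HSPB8 stays above 0 in both, that of HSPB1 moves from -0.06 to 1.15 to 0.53 to 1.23, and the estimate of HSPB11 changes sign from -0.24 to 0.35.

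CRYAB (ENSG00000109846, alpha-B crystallin, chr11:111908564-111923722, minus strand) is best known from the lens and from muscle. It measured 7.29, 6.83, 6.15, 6.63 and 6.22 CPM in DMSO replicates 1 to 5, and 6.14, 9.06, 5.96, 6.88 and 5.23 CPM in SFN replicates 1 to 5. The groups overlapped, and SFN replicate 2 was the highest of the 10 libraries. The log2 fold change was 0.00 ± 0.16 (SE, 95% interval -0.34 to 0.35, adjusted p = 0.99 by edgeR), so a change of the size seen for HSPB8 lies outside its interval. Lens markers gave little signal: of 7, CRYAA and LIM2 were not listed, and CRYBB2, MIP and BFSP2 stayed under 1 CPM. Neither CRYGS nor BFSP1, the 2 lens markers tested, passed with all libraries. BFSP1 rose without DMSO replicate 1 (0.77, adjusted p = 0.0025 by edgeR), as did 22.5% of all genes tested. The list summed to 2.35 to 5.42 CPM in DMSO and 4.86 to 5.96 CPM in SFN.

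HSPB7 (ENSG00000173641, the cardiovascular small heat shock protein, chr1:16014028-16019594, minus strand) measured 1.74, 2.96, 3.75, 2.89 and 3.31 CPM in DMSO replicates 1 to 5. In SFN replicates 1 to 5 it measured 2.32, 3.02, 3.50, 3.10 and 2.26 CPM. The groups overlapped throughout, with the lowest and the highest library both in DMSO. The log2 fold change was -0.05 ± 0.23 (SE, 95% interval -0.55 to 0.44, adjusted p = 0.91 by edgeR).

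HSPB6, HSPB2 and HSPB3 are known mainly from muscle, and all were at the edge of detection. HSPB6 (ENSG00000004776, HSP20, chr19:35754566-35758079, minus strand) had 18, 11, 15, 7 and 7 counts in DMSO replicates 1 to 5 and 6, 4, 2, 6 and 3 counts in SFN replicates 1 to 5. This corresponds to 0.414 to 1.12 CPM in DMSO and 0.149 to 0.405 CPM in SFN. The groups did not overlap, by a margin of less than 1 count, as was so for 11.1% of the genes tested with SFN lower. The filter removed HSPB6, and an exact two-sided permutation test of its CPM gave p = 0.0079, the smallest that 5 libraries against 5 can give, for 1 of 2 genes tested in this way and with no adjustment. With no low-count filter, edgeR gave a log2 fold change of -1.14 and an adjusted p of 0.19 for HSPB6. A long noncoding RNA gene on the opposite strand, AC002398.2 (ENSG00000267328), overlaps it by 925 bases and had 10 to 85 counts per library (log2 fold change 1.05 ± 0.42, SE, adjusted p = 0.093 by edgeR). Use of strand in counting is not given in the sources used here, so reads of the overlap cannot be told apart.

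HSPB2 (ENSG00000170276, chr11:111912734-111914093, plus strand), which binds the myotonic dystrophy protein kinase, lies within the span of CRYAB on the opposite strand. It had 5 counts over all libraries, 3 in DMSO and 2 in SFN, and at most 2 in any library. An annotated gene on the same strand, HSPB2-C11orf52, overlaps HSPB2 by 1358 bases and was not listed. How reads of overlapping genes were counted is not given in the sources used here. A low HSPB2 count thus cannot be told apart from reads left out for overlap. The exact permutation test gave p = 1.0. HSPB3 (ENSG00000169271, chr5:54455699-54456377, plus strand), the partner of HSPB2 in muscle, was not listed. A count of 0 allows up to 3 counts per library, or 0.137 to 0.258 CPM, for counting error only. Muscle markers were as scarce: of 9, 6 were not listed (DES, MYOG, MYH7, TNNT2, ACTN2 and CKM), and MYOD1, ACTA1 and MB stayed under 1 CPM. Of the other members of the family, CRYAA and ODF1 were not listed and HSPB9 had at most 2 counts in a library.

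HSPB11 (ENSG00000081870, named IFT25 in GENCODE 44, chr1:53916574-53945699, minus strand) carries the family's symbol, but its product works as a subunit of the intraflagellar transport complex IFT-B in cilia. In DMSO replicates 1 to 5 it measured 125, 35.7, 31.5, 38.1 and 34.9 CPM. In SFN replicates 1 to 5 it measured 45.7, 60.9, 44.3, 43.1 and 30.8 CPM. DMSO replicate 1 was more than double any SFN library, and 4 of 5 SFN libraries were above the other DMSO libraries. The log2 fold change was -0.24 ± 0.37 (SE, 95% interval -1.05 to 0.57, adjusted p = 0.71 by edgeR). Without DMSO replicate 1 it was 0.35 ± 0.15 (SE, 95% interval 0.03 to 0.67, adjusted p = 0.066 by edgeR).

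How far DMSO replicate 1 departed from the other 4 DMSO libraries differed between the members, and transcript length moved with it. HSPB1, with a canonical transcript of 777 nt, was 1.22 higher on the log2 scale in this library, and 40% of the 500 tested genes nearest in length were higher still. HSPB11, with 685 nt, was 1.83 higher, and 16% of the 500 genes nearest in length exceeded it. CRYAB, although 774 nt long, was only 0.17 higher, below 80.6% of the genes nearest in length. The longer HSPB8 (1861 nt) and HSPB7 (2144 nt) were lower in this library, at -0.41 and -0.84, while the genes nearest to them in length had medians of 0.31 and 0.27. SFN replicate 2 had a weaker departure of the same kind: HSPB1 was 0.75, HSPB11 0.59 and CRYAB 0.58 above the other 4 SFN libraries on the log2 scale, where the genes nearest in length had medians of 0.46 or 0.47. SFN replicate 5 departed in the opposite direction. Its median difference from the other 4 SFN libraries was -0.456 in the shortest of 10 length classes of tested genes and 0.402 in the longest. For SFN replicate 2 these medians were 0.437 and -0.322. Among SFN libraries, replicate 5 had the lowest HSPB1, HSPB11 and CRYAB. The part of length in the results was not tested.

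The levels of the members relative to each other were compared per length, as CPM per kb of the canonical transcript. If libraries read only 3′ ends, as the kit named in the methods does, counts do not grow with length, and the order may differ. In DMSO the median was 154 CPM per kb for HSPB1, 52.2 for HSPB11, 8.56 for CRYAB, 3.31 for HSPB8, 1.38 for HSPB7, 0.343 for HSPB6 and 0 for HSPB2. Neighbours in this order were separate in their ranges except HSPB1 and HSPB11, where the 182 CPM per kb of HSPB11 in DMSO replicate 1 exceeded the lowest HSPB1 value of 143. In SFN the median of HSPB8 was 7.94 CPM per kb, level with 7.93 for CRYAB. Their ranges, 6.82 to 9.41 and 6.75 to 11.7 CPM per kb, overlapped in SFN, whereas in DMSO they did not (2.41 to 3.79 and 7.95 to 9.41). The ranges of all other neighbours were separate in SFN. Without division by length, the outcome for HSPB8 and CRYAB was the reverse. In CPM they overlapped in DMSO (4.48 to 7.04 and 6.15 to 7.29). In SFN they were separate, with HSPB8 higher (12.7 to 17.5 and 5.23 to 9.06 CPM). HSPB1 made up 86.2% to 95% of the summed CPM of the listed members other than HSPB11 in DMSO and 87.9% to 91.6% in SFN. The share of HSPB8 in that sum was 1.53% to 5.47% in DMSO and 4.92% to 7.56% in SFN. The highest HSPB1 share and the lowest HSPB8 share were those of DMSO replicate 1, without which the DMSO ranges were 86.2% to 88.9% and 3.65% to 5.47%.

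Whether members responded differently from each other was asked with ratios of counts within a library, which do not depend on library scaling. For all 10 pairs of the 5 tested members, log2 ratios with 0.5 added to each count were compared between groups by a two-sided exact permutation test, with adjustment over the 10 pairs. The groups did not overlap in 4 pairs, and each of these reached an exact permutation p of 0.0079, the smallest this test can give (adjusted p = 0.02). HSPB8 counts per CRYAB count were 0.615, 0.907, 1.15, 0.727 and 0.990 in DMSO replicates 1 to 5. In SFN replicates 1 to 5 they were 2.07, 1.93, 2.60, 2.15 and 2.47. The log2 ratio of HSPB8 to CRYAB was thus higher in SFN by 1.38 ± 0.18 (SE), and that of HSPB8 to HSPB7 by 1.38 ± 0.13. Against HSPB11 the log2 ratio of HSPB8 was higher by 1.40 ± 0.48. Without DMSO replicate 1 the differences were 1.26 against CRYAB, 1.47 against HSPB7 and 0.95 against HSPB11.

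HSPB8 and HSPB1 could not be separated so clearly. HSPB8 counts per HSPB1 count were 0.0161, 0.0468, 0.0634, 0.0412 and 0.0516 in DMSO replicates 1 to 5, and 0.0587, 0.0537, 0.0725, 0.0729 and 0.0860 in SFN replicates 1 to 5. The groups overlapped by DMSO replicate 3, and the log2 ratio was higher in SFN by 0.76 ± 0.36 (SE, exact permutation p = 0.032, adjusted p = 0.063, rank-based 96.8% interval 0.06 to 2.17). HSPB1 counts per HSPB11 count, by contrast, were 2.23, 3.71, 3.52, 3.07 and 3.42 in DMSO replicates 1 to 5 and 4.73, 5.35, 4.82, 4.70 and 4.88 in SFN replicates 1 to 5. Every SFN library was higher, DMSO replicate 1 having the lowest ratio, and the log2 ratio differed by 0.64 ± 0.13 (SE). The other pairs overlapped between groups with all libraries. Their differences on the log2 scale were 0.61 for HSPB1 to CRYAB (96.8% interval -0.12 to 0.99), 0.62 for HSPB1 to HSPB7 (-1.26 to 1.58), 0.00 for CRYAB to HSPB7 (-0.85 to 0.67), 0.02 for CRYAB to HSPB11 (-0.51 to 1.35) and 0.02 for HSPB7 to HSPB11 (-0.93 to 2.36). When DMSO replicate 1 was left out, 8 of the 10 pairs differed, all but HSPB8 to HSPB1 (0.43, adjusted p = 0.071 by exact permutation) and CRYAB to HSPB7 (0.21, adjusted p = 0.3 by exact permutation). The differences were then 0.82 for HSPB1 to CRYAB, 1.04 for HSPB1 to HSPB7 and 0.52 for HSPB1 to HSPB11. They were -0.31 for CRYAB to HSPB11 and -0.52 for HSPB7 to HSPB11.

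**Figure D3:**
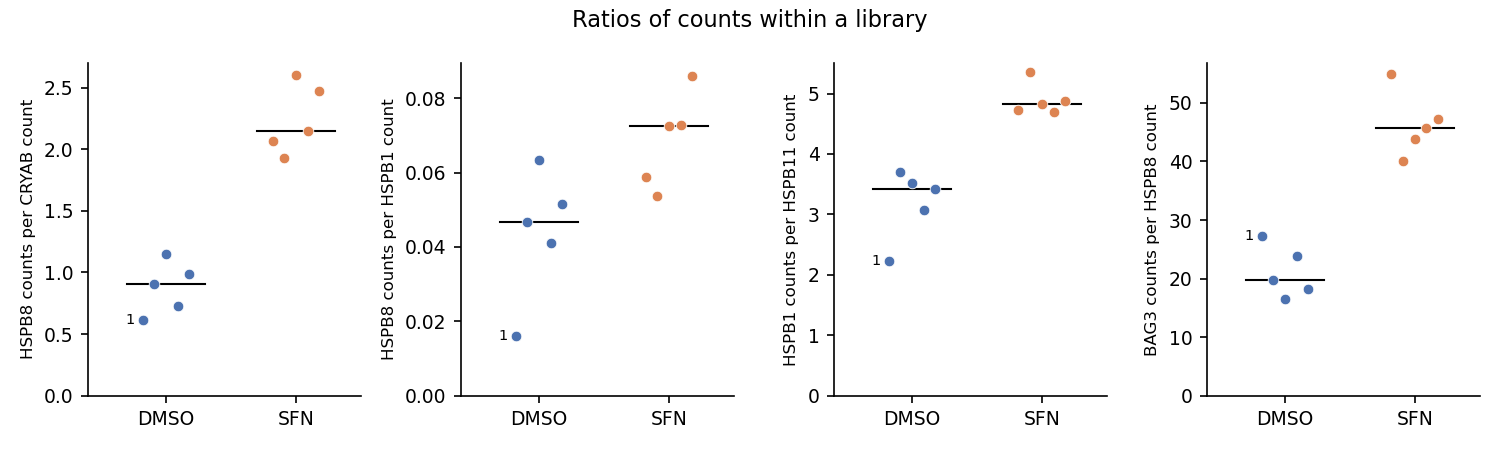
Ratios of counts within each library for 3 pairs of members and for BAG3 to HSPB8, with the group median as a line, linear axes from 0 and DMSO replicate 1 marked. The DMSO and SFN libraries are separate for HSPB8 to CRYAB, HSPB1 to HSPB11 and BAG3 to HSPB8, and overlap for HSPB8 to HSPB1.

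The proteins that work with HSPB8 were examined next. In chaperone-assisted selective autophagy, BAG3 links HSPB8 to HSP70, the ubiquitin ligase STUB1 marks the client, and the receptor SQSTM1 carries it to the autophagosome. Of 10 genes in this list, 5 rose and none fell, with a median log2 fold change of 0.20. No member of the list fell at unadjusted p under 0.05. The shares over all genes tested were 9.07% that rose and 13.9% that fell. BAG3 measured 112 to 123 CPM in DMSO and 611 to 702 CPM in SFN (log2 fold change 2.52 ± 0.10, SE, adjusted p = 2.4e-08 by edgeR). The inducible HSP70 genes HSPA1A and HSPA1B, near-identical copies whose reads may have been split between them, rose by 3.84 and 4.34 on the log2 scale. HSPA8, the constitutive HSP70 gene, rose by 0.72 and SQSTM1 by 0.35. The value for SQSTM1 (adjusted p = 0.018 by edgeR) was lost under 7 of 17 alternatives, with a largest adjusted p of 0.12. That for HSPA8 was lost under limma-voom with quantile normalization (log2 fold change 0.40, adjusted p = 0.079), where 3 genes of the list rose in place of 5. BAG3 counts per HSPB8 count, a pair chosen after the values were seen, were 16.5 to 27.3 in DMSO and 40.1 to 54.9 in SFN without overlap, so BAG3 rose more than HSPB8 in relative terms (exact permutation p = 0.0079, 1 of 3 such added ratios).

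The remaining genes of that list did not pass. STUB1 had a log2 fold change of 0.06, SYNPO2, which couples the complex to autophagosome fusion, -0.58, and HDAC6, the deacetylase that carries aggregates along microtubules, -0.36. The filamin genes, whose products are clients of the complex, had 0.03 for FLNA and -0.32 for FLNC. All 5 had DMSO replicate 1 far from the other DMSO libraries. Without it, FLNC at -0.51 and HDAC6 at -0.49 fell (adjusted p = 0.00093 and 0.0063 by edgeR). In that comparison 23.5% of all genes tested fell and 22.5% rose.

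HSPB1 is controlled by phosphorylation through p38 MAP kinases and the kinases they activate. Of the 8 genes in that list, 7 were tested and 1 rose at adjusted p under 0.05 by edgeR. None fell at adjusted or unadjusted p under 0.05. Their median log2 fold change was 0.02. Over all genes tested, 9.07% rose and 13.9% fell. MAPKAPK2, the main HSPB1 kinase, was 86.9 to 98.4 CPM in DMSO and 131 to 139 CPM in SFN (log2 fold change 0.53 ± 0.08, SE, adjusted p = 0.00075 by edgeR). The other kinases that act on HSPB1, MAPKAPK3, MAPKAPK5 and PRKD1, had log2 fold changes of 0.07, 0.07 and -0.19. The p38 genes MAPK14 and MAPK11 had 0.02 and -0.02, and the p38 activator MAP2K3 had -0.17. MAP2K6, the other activator, had at most 12 counts in a library and was not tested. Without DMSO replicate 1, PRKD1 at -0.32 and MAP2K3 at -0.28 fell (adjusted p = 0.012 and 0.021 by edgeR). In that comparison 23.5% of all genes tested fell and 22.5% rose.

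**Figure D4:**
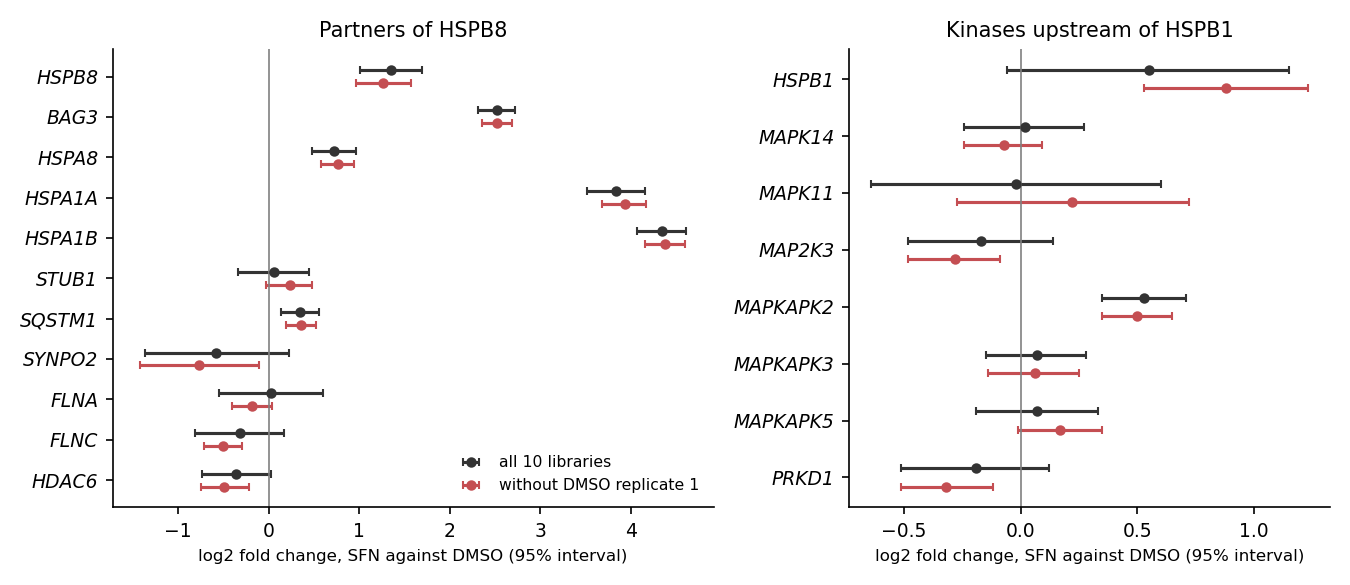
Log2 fold changes with 95% intervals for HSPB8 and the 10 genes of the list of its partners and clients (left) and for HSPB1 and the 7 tested kinases of its pathway (right), with all 10 libraries (dark) and without DMSO replicate 1 (red). HSPB8, BAG3, HSPA8, HSPA1A, HSPA1B, SQSTM1 and MAPKAPK2 stay above 0 in both fits, and the wide intervals of FLNA and STUB1 narrow without that library.

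HSPB11 belongs to IFT-B, for which a list of 16 other subunit genes was tested. Of these, 1 rose (9.07% of all genes tested did) and 4 fell (13.9% of all genes tested did), with a median log2 fold change of -0.10. The number that fell ranged from 2 to 8 over the alternatives, and it was 2 without DMSO replicate 2, SFN replicate 1, SFN replicate 2 or SFN replicate 4. IFT27, the small GTPase gene whose product pairs with the HSPB11 product, measured 3.55 to 9.34 CPM in DMSO and 4.10 to 7.07 CPM in SFN (log2 fold change -0.04 ± 0.26, SE, adjusted p = 0.94 by edgeR). The rise was that of IFT20 (0.54 ± 0.14, SE, adjusted p = 0.014 by edgeR), and among genes with a mean of at least 5 CPM over the 10 libraries the largest fall was that of TRAF3IP1 (-0.63 ± 0.11, SE, adjusted p = 0.0011 by edgeR). TTC30B and TTC30A, which lie under that mean and are named after their values were seen, fell by more. TTC30B went from 4.55 to 6.70 CPM in DMSO to 0.656 to 2.01 CPM in SFN (-2.14 ± 0.29, SE, adjusted p = 0.00025 by edgeR), and TTC30A had a log2 fold change of -0.83 ± 0.25 (SE, adjusted p = 0.033 by edgeR). Without DMSO replicate 1, 2 IFT-B genes rose and 7 fell, in a comparison where 22.5% of all genes tested rose and 23.5% fell.

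HSPB8 and HSPB1 were last set beside a list of 25 genes of the HSF1 response. The list included the factor genes HSF1 (log2 fold change 0.10) and HSF2 (-0.12) themselves. BAG3, HSPA8, HSPA1A and HSPA1B were also in the list of HSPB8 partners, so the 2 lists are not separate results. Of the list, 17 rose at adjusted p under 0.05 by edgeR, as did 9.07% of all genes tested. No gene of the list fell at adjusted or unadjusted p under 0.05, and its median log2 fold change was 0.77. HSPA6, a strictly inducible HSP70 gene and the largest increase of the list, went from 0.391 to 0.820 CPM in DMSO to 35.1 to 57.5 CPM in SFN (log2 fold change 6.28 ± 0.22, SE, adjusted p = 2.4e-08 by edgeR). The 1.35 of HSPB8 and 0.55 of HSPB1 lay on either side of the list's median. With DMSO replicate 1 left out, 22 of the 25 rose and the median was 1.05, beside 1.26 for HSPB8 and 0.88 for HSPB1. In that comparison 22.5% of all genes tested rose.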

How the data were processed

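The authors sequenced RNA of 5 DMSO and 5 SFN libraries of RPE-1 cells (4 h) and deposited raw, unnormalized counts for each Ensembl gene. The submitters' processing notes name FastQC, STAR, featureCounts, edgeR and GRCh38, and the methods name Lexogen QuantSeq libraries and the Bluebee pipeline. Versions, use of strand and molecular identifiers are not given in the sources used here. Chi-square per degree of freedom for 2 replicates' counts ranged from 3.50 to 243, so none was a copy of another.

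Counts were analysed with edgeR 4.0.16 (filterByExpr, TMM, glmQLFit, glmQLFTest), with limma 3.58.1 and DESeq2 1.42.0 as alternatives, in R 4.3.3. Standard errors were the log2 fold change, without sign, over the square root of F. Members that the filter removed, and ratios within a library (0.5 added to each count), were tested by two-sided exact permutation over 252 splits. The methods were tested on simulated counts. GENCODE 44 gave positions and lengths and held 28145 of 28380 identifiers.

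Members and lists were chosen with earlier results of these data known. The genes named are the members, the BAG3 and kinase lists, IFT27, the largest increase and decrease of the IFT-B and HSF1 lists among called genes with a mean of at least 5 CPM, the 3 genes most like HSPB8, genes that overlap a member, and the markers. Not every overlapping gene is reported here. The authors' model with repeated measures, which the methods do not define, was not run.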

Additional observations from a re-analysis of the deposited data

Results flagged for a closer look

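In each group of 5 libraries, the gap between the most extreme library and its nearest neighbour was divided by the range of the group. Of 65 groups examined over the named genes, 15 had a library far enough out to be picked by this ratio (over 0.71), where chance picks about 1 in 20, or 3 of 65. DMSO replicate 1 was the library in 11 of the 15.

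Among the small heat shock protein genes, DMSO replicate 1 was high for HSPB1 (279 CPM, ratio 0.87) and HSPB11 (125 CPM, ratio 0.93). In the same library STUB1 (0.74), MAPK11 (0.76) and IFT27 (0.74) were high, and SYNPO2 (0.77), FLNA (0.72), FLNC (0.76), HDAC6 (0.88), MAPK14 (0.82) and PRKD1 (0.82) were low. SFN replicate 5 was low for BAG3 (611 CPM, ratio 0.72) and SQSTM1 (392 CPM, ratio 0.72). SFN replicate 2 was high for GARS (480 CPM, ratio 0.86), and DMSO replicate 5 for MAP2K6 (0.71 CPM, ratio 0.76). What set these libraries apart was not tested.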

How the results depend on the processing

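HSPB8 rose in all 17 alternatives run, with log2 fold changes from 1.25 to 1.52 and adjusted p from 1.7e-13 to 0.00071. No member fell in any of 18. The number of members that rose was 1 to 2 when replicates were left out, the 2 being without DMSO replicate 1. Over all genes tested, 9.07% rose with all libraries and 22.5% without DMSO replicate 1. The number of members was 3 with sample quality weights in limma-voom. It was also 3 without DMSO replicate 1 and with no low-count filter. Both settings were chosen after seeing the data, and their shares over all genes are not reported here. With those weights HSPB1 was at 0.79 (adjusted p = 6.8e-07), HSPB11 at 0.29 (adjusted p = 0.018, against -0.24 with all libraries), CRYAB at -0.05, FLNA at -0.13, MAPK14 at -0.10, MAPK11 at 0.21 and IFT27 at 0.24.

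Over the fits that each left out 1 replicate, log2 fold changes ranged from 0.38 to 0.88 for HSPB1, -0.38 to 0.35 for HSPB11, -0.19 to 0.05 for HSPB7, -0.12 to 0.08 for CRYAB, -0.01 to 0.23 for STUB1, -0.18 to 0.15 for FLNA, -0.07 to 0.05 for MAPK14, -0.18 to 0.22 for MAPK11 and -0.16 to 0.24 for IFT27. The HSPB2 difference ranged from -0.0118 to 0.015 CPM, and 4 to 8 of the 10 member pairs differed, 8 without DMSO replicate 1. Scaling by library size only gave -0.08 for CRYAB, -0.01 for STUB1, -0.09 for FLNA, -0.08 for MAPK14 and -0.02 for MAPKAPK3. Quantile normalization gave 0.17 for HSPB7, -0.03 for FLNA, -0.00 for MAPK14, 0.15 for MAPK11 and 0.20 for IFT27. No low-count filter gave -0.01 for CRYAB, and relative log expression (RLE) size factors computed in edgeR gave 0.000163 CPM for HSPB2.

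Libraries of the same number correlated from -0.267 to 0.484 in their deviations, and 1 of 5 correlated best with its own number, so the numbers were not taken to pair them. With the replicate block, HSPB8 was at 1.36, HSPB1 at 0.60 (adjusted p = 0.10), CRYAB at -0.01 and IFT27 at 0.02, and no member's call changed. The cause of these shifts was not tested.

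Counts limit the rare members. HSPB6 had 79 counts over all libraries and HSPB2 had 5.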
